A study of Mus musculus with 15 samples.

Results

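The genes described here set how an adipocyte routes pyruvate and whether it makes glycerol backbones from it: the phosphoenolpyruvate carboxykinases Pck1 and Pck2, the pyruvate dehydrogenase kinases Pdk1 to Pdk4, the pyruvate dehydrogenase E1 subunits Pdha1 and Pdhb, and the mitochondrial pyruvate carrier subunits Mpc1 and Mpc2. They were taken by name, not by their values, and each was matched to the probe set named by its Entrez number. Of these 10 genes, 9 were found among the 25206 probe sets of the value table, and Mpc1 is not analysed here. The probe sets were 18534_at (Pck1), 74551_at (Pck2), 228026_at (Pdk1), 18604_at (Pdk2), 236900_at (Pdk3), 27273_at (Pdk4), 18597_at (Pdha1), 68263_at (Pdhb) and 70456_at (Mpc2).

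RNA of sorted adipocytes from mice of 8 to 10 weeks, kept on standard chow, was hybridised to 1-colour arrays. White adipocytes without UCP1 from the inguinal depot of untreated mice filled 4 arrays (WAT), and brown adipocytes with UCP1 from the brown depot of such mice filled 3 (BAT). UCP1-positive cells of the inguinal depot were taken after 3 treatments: CL316243, a beta3-adrenergic agonist (CL, 3 arrays), roscovitine, an inhibitor of cyclin-dependent kinases (RS, 2 arrays), and rosiglitazone, a ligand of PPARG (RG, 3 arrays). The question named by the series title is how the UCP1-positive cells that appear with roscovitine differ from other ones. The labels call the RS cells brite and the CL and RG cells beige, and they name GFP for the UCP1 gate but Tomato for the mice, so the reporter is not settled here. They give neither dose, duration, sex nor animal of origin, and p-values therefore measure the spread between these samples, which may be technical. One further RS array is not analysed here. No untreated UCP1-positive inguinal cells were among the arrays, so treatment and gate cannot be told apart in CL, RS or RG against WAT.

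Pyruvate enters mitochondria through a carrier built from MPC1 and MPC2, and the pyruvate dehydrogenase complex then turns it into acetyl-CoA. The PDK enzymes phosphorylate the E1 alpha subunit, encoded by Pdha1, and switch the complex off, while phosphatases switch it back on. Cytosolic PEPCK, encoded by Pck1, converts oxaloacetate to phosphoenolpyruvate. In fat cells, which make little glucose, this step feeds glyceroneogenesis, the synthesis of glycerol 3-phosphate used to re-esterify fatty acids.

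Promoter sequence is shown for the kinase genes Pdk2, Pdk3 and Pdk4, which went in different directions from white to UCP1-positive cells, and for Pck1. Each stretch holds the 250 bases before the gene's start, from RefSeq on GRCm38.p6, where all 9 genes matched. It runs 5′ to 3′ on the gene's own strand, and capitals mark matches to any of 9 searched motifs on either strand. The Pck1 window is chr2:173152823-173153072 (plus strand), that of Pdk2 chr11:95041372-95041621 (minus strand), that of Pdk3 chrX:93832151-93832400 (minus strand) and that of Pdk4 chr6:5496279-5496528 (minus strand).
Pck1: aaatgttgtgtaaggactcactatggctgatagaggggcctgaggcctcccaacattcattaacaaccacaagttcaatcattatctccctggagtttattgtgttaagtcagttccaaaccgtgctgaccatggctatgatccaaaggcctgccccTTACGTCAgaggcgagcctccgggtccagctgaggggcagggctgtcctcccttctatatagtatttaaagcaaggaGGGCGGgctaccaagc
Pdk2: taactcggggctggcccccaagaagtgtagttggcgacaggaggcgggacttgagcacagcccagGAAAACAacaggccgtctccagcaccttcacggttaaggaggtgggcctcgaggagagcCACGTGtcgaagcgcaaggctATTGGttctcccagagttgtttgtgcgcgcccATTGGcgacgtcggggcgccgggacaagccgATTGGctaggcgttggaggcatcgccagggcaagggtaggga
Pdk3: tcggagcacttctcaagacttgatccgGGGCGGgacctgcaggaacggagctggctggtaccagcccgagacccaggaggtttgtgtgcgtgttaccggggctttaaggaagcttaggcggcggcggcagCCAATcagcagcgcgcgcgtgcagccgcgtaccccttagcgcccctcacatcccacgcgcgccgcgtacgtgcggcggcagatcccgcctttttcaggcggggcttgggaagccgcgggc
Pdk4: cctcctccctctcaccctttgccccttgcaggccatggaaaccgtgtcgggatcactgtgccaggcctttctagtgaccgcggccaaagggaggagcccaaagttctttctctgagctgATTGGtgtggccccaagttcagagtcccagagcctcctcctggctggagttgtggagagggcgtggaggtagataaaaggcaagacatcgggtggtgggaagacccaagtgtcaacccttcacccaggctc

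The Pck1 window held a cAMP response element (searched as TGACGTNA, found as TTACGTCA from base 93 to base 86 before the start) and a GC box (GGGCGG). The cAMP response element occurred in 2.62% of 27025 gene windows of the same length, and Pdhb was the other of the 9 genes to hold one. The Pdhb window (chr14:8172993-8173242, minus strand) lies inside the gene's listed span, 8165991 to 8173303, so its matches are not upstream of that span. The Pck2 and Pdk1 windows end at 55540265 and 71873223, just past the listed gene starts at 55540263 and 71873215. The Pdk2 window held a forkhead element (TGTTTNC, 17.9% of windows), an E-box (CACGTG, 6.04%) and 3 CCAAT boxes. A CCAAT box was in 6 of the 9 windows, against 34.5% of all windows, and so was a GC box, against 33.0%. The single match in the Pdk4 window was a CCAAT box, and Pdk3 held a CCAAT box and a GC box. None of the 9 windows held TNAAGGTCA (an ERR element, 1.13% of all windows), a direct repeat of nuclear receptor half-sites spaced by 1 base (0.337%), an NRF1 element (3.87%) or a TATA box written TATAAA (13%). The CACGTG and TGACGTNA searches share the letters ACGT. The matches describe these letters in these windows, and binding was not measured.

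Values are log2 expression values as deposited, and array medians lay between 3.33 and 3.47. Adipoq, the adiponectin gene and an adipocyte marker, was at 7.85 or above on every array. The mean of 10 mature adipocyte markers was 8.14 on WAT 4, 9.50 to 10.0 on the other WAT arrays and 9.97 to 10.72 on the 11 UCP1-positive arrays. WAT 4 also had the highest mean of 9 macrophage markers, 8.60 against 7.53 to 7.87 on the other WAT arrays and 4.71 to 6.19 on the UCP1-positive ones. The 8 stromal markers ran the same way, with 9.05 on WAT 4, 7.17 to 8.19 on the other WAT arrays and 4.94 to 6.93 on the UCP1-positive arrays. Hepatocyte and muscle marker means stayed at or below 3.98, but single markers stood higher. Alb averaged 5.13 in WAT, 3.36 in BAT, 5.76 in CL, 6.515 in RS and 6.43 in RG, and Acta1 reached 6.11 in BAT. Alb was called lower in BAT than in WAT, CL, RS and RG. Called higher than in WAT were Ttr, Ckm and Myh4 in BAT, Cps1 and Myh4 in CL, and Cps1, Ckm and Myh4 in RS. The means of these called genes ran from 2.62 (Myh4 in BAT) to 3.59 (Cps1 in RS), near or below the array medians, so they may be near background. The part of hepatocyte or muscle RNA in the values of the 9 genes was not tested. Ucp1 was 6.05 on RS 3 and 8.43 on RS 4, and the mean of 8 endothelial markers was 4.44 and 6.54. WAT 4 and RS 3 were therefore left out in turn, with the differences given below for most of the genes.

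Against white adipocytes, Pck1, Pdk4 and Mpc2 were called higher in each UCP1-positive group, Pdk3 was called lower in each, and Pck2 was called in none. A gene is called when its limma p-value, adjusted by Benjamini-Hochberg over all probe sets, is under 0.05. The 4 comparisons with WAT share the WAT arrays. In BAT, 7 of the 9 genes were called higher and 1 lower, where 27.6% of all probe sets were called higher and 16.4% lower. The median difference of the 9 genes was 1.28 in log2 units, against 0.18 over all probe sets. The arrays of BAT and WAT did not overlap for 8 of the 9, and for 47.1% of all probe sets.

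In CL, 5 genes were called higher and 1 lower, against 15.2% and 9.97% of all probe sets. Their median difference was 1.23 (0.13 over all probe sets), and 6 of them did not overlap (37.7%). In RS, 3 were called higher and 1 lower (11.1% and 10.3% of all), with a median of 0.82 (0.14 over all) and 5 without overlap (46.0%). In RG, 4 were called higher and 1 lower (5.19% and 6.24% of all), with a median of 0.82 (0.10 over all) and 6 without overlap (30.7%). Over all probe sets the differences from WAT were above 0 in the median, and centring each array on its own median lowers them, as for Pck1 in RS from 1.28 to 1.20. With that centring, 5192 probe sets were called higher and 4880 lower in BAT, in place of 6950 and 4146, and in RS 1937 and 3002, in place of 2786 and 2601. In bulk RNA, fewer cells of a type and less RNA per cell cannot be told apart.

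**Figure D1:**
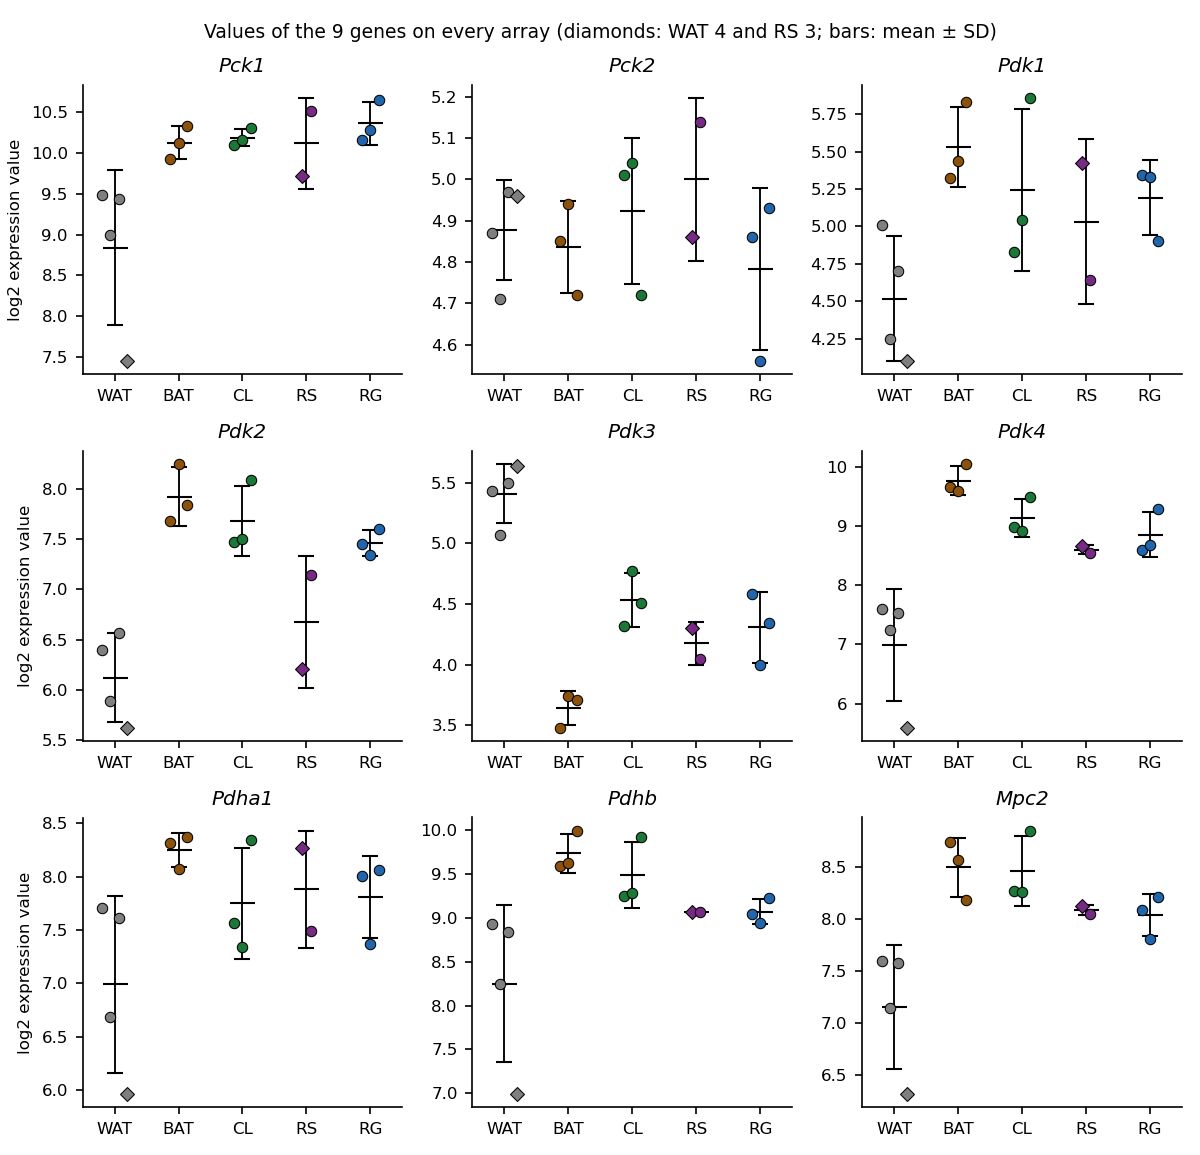
Log2 expression value (vertical axes, a separate scale for each gene) of the 9 genes on all 15 arrays by group, with bars for mean ± SD (WAT n = 4, BAT, CL and RG n = 3, RS n = 2) and diamonds for WAT 4 and RS 3. Pdk4 ran from 5.59 to 7.60 in WAT and from 8.55 to 10.05 in the other groups, Pdk3 was highest in WAT, and the Pck2 groups overlapped throughout.

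Pck1, the cytosolic PEPCK of glyceroneogenesis, was higher in all UCP1-positive cells than in white ones and did not differ detectably among them. The value lists give arrays in the order WAT 1 to 4, BAT 1, 3 and 4, CL 1, 3 and 4, RS 3 and 4, and RG 2, 3 and 4. Pck1 read 9.48, 9.0, 9.43 and 7.45 in WAT and 9.92, 10.12 and 10.33 in BAT. It read 10.10, 10.15 and 10.30 in CL, 9.72 and 10.51 in RS, and 10.15, 10.28 and 10.65 in RG. Every UCP1-positive array lay above every WAT array, and WAT 4 lay far under the other 3. The difference from WAT was 1.28 ± 0.371 (SE) in BAT, or 2.43-fold (limma adjusted p = 0.0122), and 1.34 ± 0.371 in CL (adjusted p = 0.0171). In RG it was 1.52 ± 0.371 (adjusted p = 0.0175) and in RS 1.28 ± 0.420 (adjusted p = 0.0425). Without WAT 4, Pck1 still differed, by 0.82 in BAT, 0.88 in CL, 0.81 in RS and 1.06 in RG, with adjusted p = 0.0104, 0.0155, 0.0393 and 0.0120.

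The order of Pck1 means was RG, CL, BAT, RS, WAT, and the only neighbours that differed were RS and WAT. The widest gap among the UCP1-positive groups was that of RG over RS, and the 95% interval of RS minus RG ran from -1.19 to 0.70. Only the BAT call held under all alternatives. The CL call was lost without CL 4 (adjusted p = 0.0617) and the RG call without RG 4 (adjusted p = 0.0821). With the replicate number as a block, both were lost (limma adjusted p = 0.0639 in CL and 0.0562 in RG). A fit of WAT and RG alone also ended the RG call (limma adjusted p = 0.0535). The RS call was the least stable: it was lost without WAT 2, BAT 3, CL 1, CL 3, RS 3, RS 4, RG 2 or RG 3, with adjusted p from 0.0512 (BAT 3) to 0.287 (RS 4). Median centring (adjusted p = 0.0530) and quantile normalization (adjusted p = 0.0802) also ended it. So did the block, a fit of WAT and RS alone, and array weights (limma adjusted p = 0.105, 0.139 and 0.134).

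Pck2, the mitochondrial PEPCK, showed no detectable difference in any comparison. Its WAT arrays read 4.87, 4.71, 4.97 and 4.96, and its BAT arrays 4.85, 4.94 and 4.72. The CL arrays read 5.01, 5.04 and 4.72, the RS arrays 4.86 and 5.14, and the RG arrays 4.86, 4.56 and 4.93. All groups overlapped, with means from 4.78 in RG to 5.0 in RS. The difference from WAT was -0.04 in BAT (95% interval -0.36 to 0.28), 0.05 in CL (-0.28 to 0.37), 0.12 in RS (-0.24 to 0.49) and -0.09 in RG (-0.42 to 0.23). WAT 4, which was the lowest WAT array for 7 of the 9 genes, lay within the other WAT arrays for Pck2.

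Mpc2, a subunit of the carrier that brings pyruvate into mitochondria, was higher in UCP1-positive cells. Its means were highest in BAT and CL, but no difference among the UCP1-positive groups was called. Its WAT arrays read 7.59, 7.14, 7.57 and 6.31, and its BAT arrays 8.74, 8.57 and 8.18. CL arrays read 8.27, 8.26 and 8.85, RS arrays 8.12 and 8.05, and RG arrays 8.09, 7.81 and 8.21. The WAT values lay below all others. Mpc2 rose by 1.34 ± 0.269 in BAT (adjusted p = 0.00140) and by 1.31 ± 0.269 in CL (adjusted p = 0.00395). The calls in RS (0.93 ± 0.305, adjusted p = 0.0414) and RG (0.88 ± 0.269, adjusted p = 0.0457) lay close to the threshold. Both were lost without WAT 4, at 0.65 in RS (adjusted p = 0.0741) and 0.60 in RG (adjusted p = 0.103). The RS call was also lost without WAT 2, RS 3, RS 4 or RG 2 (adjusted p from 0.0536 to 0.144) and with median centring (adjusted p = 0.0579). The RG call was lost without WAT 2, BAT 1, BAT 3, CL 1, CL 3, RG 2, RG 3 or RG 4 (adjusted p from 0.0516 to 0.156). The Mpc2 means ran BAT, CL, RS, RG, WAT, and of neighbours RG and WAT alone differed.

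The E1 subunits of pyruvate dehydrogenase were higher in brown than in white adipocytes, with less certain differences in the treated inguinal groups. Pdha1, the alpha subunit that the kinases phosphorylate, read 7.71, 6.68, 7.61 and 5.96 in WAT and 8.32, 8.07 and 8.37 in BAT. It read 7.57, 7.34 and 8.34 in CL, 8.27 and 7.49 in RS, and 8.01, 7.37 and 8.06 in RG. BAT lay above every WAT array, whereas each treated group had an array below both WAT 1 and WAT 3. Pdha1 rose by 1.26 ± 0.370 in BAT (adjusted p = 0.0132; 0.92 without WAT 4, adjusted p = 0.0337). The differences were 0.76 in CL (95% interval -0.03 to 1.55), 0.89 in RS (-0.003 to 1.78) and 0.82 in RG (0.04 to 1.61), none of them called (adjusted p = 0.140, 0.133 and 0.158). Without WAT 4 these were 0.42, 0.55 and 0.48. Without RS 3 the RS difference was 0.50. In the order BAT, RS, RG, CL, WAT, no neighbours differed.

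Pdhb, the beta subunit, read 8.93, 8.24, 8.84 and 6.99 in WAT and 9.59, 9.62 and 9.99 in BAT. The CL arrays read 9.25, 9.28 and 9.92, the RS arrays 9.07 and 9.06, and the RG arrays 9.04, 8.94 and 9.22. Every UCP1-positive array was above WAT, though RG 3, at 8.94, exceeded WAT 1 by little. Pdhb rose by 1.48 ± 0.347 in BAT (adjusted p = 0.00372) and by 1.23 ± 0.347 in CL (adjusted p = 0.0189). In RS the difference was 0.82 (95% interval -0.02 to 1.65, adjusted p = 0.141) and in RG 0.82 (0.08 to 1.56, adjusted p = 0.138). Without WAT 4 the differences were 1.06 in BAT (adjusted p = 0.00252), 0.81 in CL (adjusted p = 0.0230), 0.40 in RS and 0.40 in RG. The CL call was lost without CL 4 (adjusted p = 0.0918). It was also lost with the replicate number as a block and with WAT and CL fitted alone (limma adjusted p = 0.0682 and 0.0561). Without RS 3 the RS difference was 0.81. The Pdhb means ran BAT, CL, RG, RS, WAT, with no neighbours that differed.

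The 4 kinases did not move as a block: against WAT, Pdk4 was called higher in all 4 groups, Pdk2 in BAT, CL and RG, and Pdk1 in BAT, while Pdk3 was called lower in all 4. Pdk4, the isoform known for its rise in fasting, showed the largest difference of the 9 genes in each comparison with WAT, except that without WAT 4 Pdk3 in RS (-1.16) differed by slightly more than Pdk4 (1.14). Its WAT arrays read 7.60, 7.25, 7.54 and 5.59, and its BAT arrays 9.66, 9.60 and 10.05. The CL arrays read 8.99, 8.92 and 9.50, the RS arrays 8.66 and 8.55, and the RG arrays 8.60, 8.68 and 9.29. The groups thus fell into 3 levels without overlap between them, with WAT lowest, BAT highest and the treated groups between.

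Pdk4 was 6.84-fold higher in BAT than in WAT (2.78 ± 0.373, adjusted p = 0.000101) and 4.41-fold higher in CL (2.14 ± 0.373, adjusted p = 0.00150). It was 3.63-fold higher in RG (1.86 ± 0.373, adjusted p = 0.00684) and 3.05-fold higher in RS (1.61 ± 0.423, adjusted p = 0.0164). Leaving out WAT 4 lowered the differences to 2.31, 1.67, 1.39 and 1.14 in BAT, CL, RG and RS, with adjusted p = 1.14e-05, 0.000392, 0.00218 and 0.00888. The RS call was lost without RS 3 (1.56) or RS 4 (1.67), which leave 1 RS array, taken to vary like the other groups. It was also lost with the block, with WAT and RS fitted alone, and with array weights (limma adjusted p = 0.0560, 0.0728 and 0.0649). Set against BAT, Pdk4 differed by -0.63 in CL (95% interval -1.48 to 0.22), -0.91 in RG (-1.76 to -0.06) and -1.17 in RS (-2.11 to -0.22), and none of these was called (adjusted p = 0.422, 0.131 and 0.155). Without WAT 4, which enters only the shared estimate of the spread, those in RG (adjusted p = 0.0143) and RS (adjusted p = 0.0172) were called. The order of means was BAT, CL, RG, RS, WAT, and RS and WAT were the only neighbours that differed.

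Pdk2, a broadly expressed isoform, was called higher than in WAT in BAT, CL and RG. It read 6.40, 5.89, 6.57 and 5.62 in WAT and 7.68, 8.25 and 7.84 in BAT. It read 7.47, 7.50 and 8.09 in CL, 6.21 and 7.14 in RS, and 7.45, 7.34 and 7.60 in RG. RS 3 lay inside the WAT range, and RS 4 lay between WAT and all BAT, CL and RG arrays. Pdk2 rose by 1.80 ± 0.263 in BAT (3.49-fold, adjusted p = 0.000165), 1.57 ± 0.263 in CL (adjusted p = 0.00126) and 1.34 ± 0.263 in RG (adjusted p = 0.00611). Without WAT 4 these were 1.64, 1.40 and 1.18 (adjusted p = 0.000465, 0.00326 and 0.0165). In RS the difference from WAT was 0.56 (95% interval -0.08 to 1.19, adjusted p = 0.183), 1.02 without RS 3 (adjusted p = 0.0618) and 0.09 without RS 4 (adjusted p = 0.882).

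RS against the other UCP1-positive cells gave the single call of that kind for Pdk2, 1.25 ± 0.314 lower than in BAT (limma log2 difference -1.25, adjusted p = 0.0414), one of 9 genes where 3.67% of all probe sets were called. That call was lost without WAT 1, WAT 2, any BAT array, CL 1, CL 3, RS 3 or any RG array (adjusted p from 0.0505 to 0.273). Without RS 3, whose Ucp1 and endothelial values were the lower of the 2 RS arrays, the difference was -0.78. Against CL, Pdk2 in RS differed by -1.01 (95% interval -1.68 to -0.34, adjusted p = 0.117), by -0.55 without RS 3 (adjusted p = 0.490) and by -1.48 without RS 4 (adjusted p = 0.0474). Against RG it differed by -0.79 (-1.46 to -0.12, adjusted p = 0.199), by -0.32 without RS 3 and by -1.25 without RS 4 (adjusted p = 0.690 and 0.116). The part of RS 3 in the low RS mean cannot be told apart from the treatment with 2 arrays. The Pdk2 means ran BAT, CL, RG, RS, WAT, and no neighbours differed by the test.

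Pdk1, known as a target of hypoxia signalling, was called against WAT in BAT and in no treated group. Its WAT arrays read 5.01, 4.25, 4.70 and 4.10, and its BAT arrays 5.32, 5.44 and 5.83. The CL arrays read 4.83, 5.04 and 5.86, the RS arrays 5.42 and 4.64, and the RG arrays 5.34, 5.33 and 4.90. All treated groups overlapped WAT, and BAT did not. Pdk1 rose by 1.02 ± 0.278 in BAT (adjusted p = 0.00921; 0.88 without WAT 4, adjusted p = 0.0276). The differences were 0.73 in CL (adjusted p = 0.0660), 0.68 in RG (adjusted p = 0.127) and 0.52 in RS (adjusted p = 0.241). Without RS 3 the RS difference was 0.125. The treated groups differed from BAT by -0.29 in CL, -0.34 in RG and -0.50 in RS, and none of these was called (adjusted p = 0.654, 0.460 and 0.428). In CL the difference was called without WAT 1 (0.89, adjusted p = 0.0362) or CL 1 (0.94, adjusted p = 0.0499). Quantile normalization also gave a call in CL (0.91, limma adjusted p = 0.0437), and array weights gave 1 in RG (0.70, limma adjusted p = 0.0257). The means ran BAT, CL, RG, RS, WAT, with no neighbours that differed.

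Pdk3, an X-linked kinase isoform, was the one gene of the 9 that was lower in UCP1-positive cells. Its WAT arrays read 5.43, 5.07, 5.50 and 5.64, and its BAT arrays 3.48, 3.74 and 3.71. The CL arrays read 4.32, 4.77 and 4.51, the RS arrays 4.30 and 4.05, and the RG arrays 4.58, 4.00 and 4.34. Every WAT array lay above all others, and every BAT array lay below all others. The BAT values stood between the 50.2 and 57.4 percentile of their arrays, close to the middle of all probe sets. That middle is a low level here: Ucp1 in WAT, cells sorted as lacking UCP1, averaged 4.02 and reached 4.47. All BAT values of Pdk3 lay below that Ucp1 mean, and some treated arrays lay below 4.47. Pdk3 in BAT may therefore be near background. How far this limits the size of its differences from BAT was not tested.

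Pdk3 was 3.40-fold lower in BAT than in WAT (log2 difference -1.77 ± 0.182, adjusted p = 1.53e-05), 2.35-fold lower in RS (-1.24 ± 0.206, adjusted p = 0.00159), 2.15-fold lower in RG (-1.10 ± 0.182, adjusted p = 0.00220) and 1.84-fold lower in CL (-0.88 ± 0.182, adjusted p = 0.00415). WAT 4 was the highest array for Pdk3, and without it the differences were -1.69, -1.16, -1.03 and -0.80 in BAT, RS, RG and CL, all still called (adjusted p at most 0.0134). The RS call also held without RS 3 and without RS 4. Pdk3 was also higher in CL than in BAT (0.89 ± 0.195, adjusted p = 0.0309), 1 of 9 genes where 2.05% of all probe sets were called. In RG it was 0.66 ± 0.195 above BAT (adjusted p = 0.0351), again 1 of 9, where 14.3% of all probe sets were called. In RS the gap to BAT was 0.53 (95% interval 0.07 to 0.99, adjusted p = 0.181). The CL and BAT difference was not called without BAT 1, BAT 4 or any CL array (adjusted p from 0.0546 to 0.109). The RG and BAT difference was not called without any 1 of the BAT arrays, RG 2 or RG 4 (adjusted p from 0.0503 to 0.140). The order was WAT, CL, RG, RS, BAT, and WAT and CL were the only neighbours that differed.

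Markers of other cells moved in the same comparisons as Pdk3. All 9 macrophage markers were called lower than in WAT in each UCP1-positive group, and stromal markers were called lower in 8 of 8 in BAT, 5 in CL, 7 in RS and 3 in RG. Endothelial markers were called lower in 5 of 8 in RS and 2 in RG. Of all probe sets, 16.4% were called lower in BAT, 9.97% in CL, 10.3% in RS and 6.24% in RG. Over the arrays, the macrophage mean ran from 5.10 to 5.48 in BAT, 5.23 to 5.97 in CL, 4.71 to 5.26 in RS and 5.06 to 6.19 in RG. The stromal mean ran from 5.18 to 5.72 in BAT, 5.58 to 6.76 in CL, 4.94 to 6.07 in RS and 5.98 to 6.93 in RG. The part of these cells in the Pdk3 values was not tested. For Pck1 and Pdk4 the mature adipocyte mean stands beside the values. It was 8.14 to 10.0 in WAT, 9.97 to 9.98 in BAT, 10.07 to 10.55 in CL, 10.32 to 10.54 in RS and 10.34 to 10.72 in RG, so that every CL, RS and RG array lay above every WAT array. Its part in the Pck1 and Pdk4 differences was not tested.

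**Figure D2:**
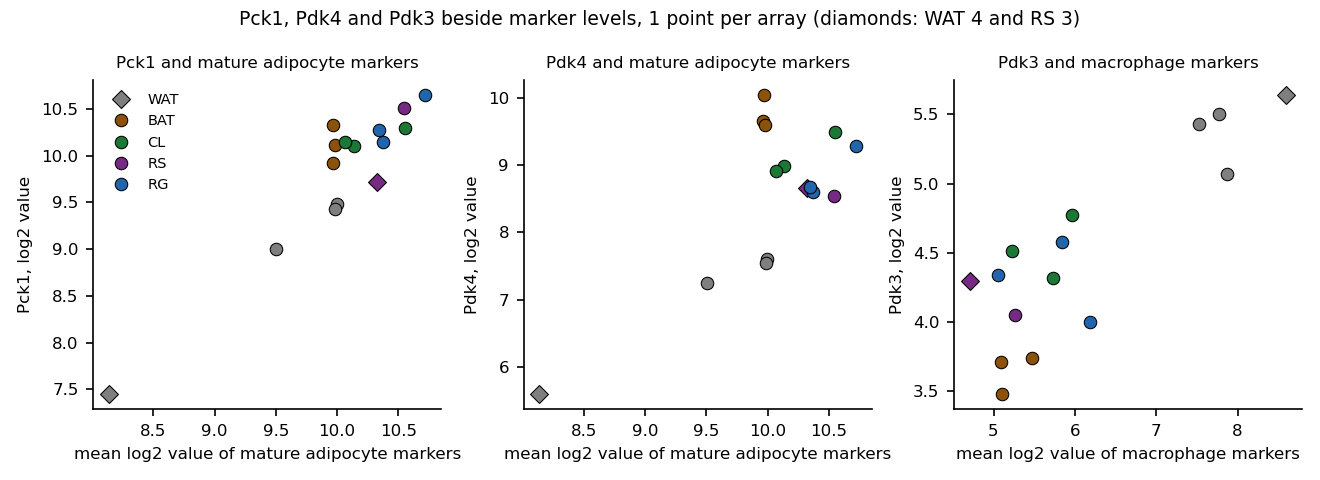
Log2 values of Pck1 (left) and Pdk4 (middle) against the mean log2 value of 10 mature adipocyte markers, and of Pdk3 (right) against that of 9 macrophage markers, 1 point per array, with diamonds for WAT 4 and RS 3. WAT 4 sits at the low end of both adipocyte panels (marker mean 8.14) and at the high end of the macrophage panel (8.60), and the BAT arrays sit at Pdk4 values of 9.60 to 10.05 with an adipocyte mean of 9.97 to 9.98.

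Between the UCP1-positive groups, few differences in these genes were detectable. In RS against CL, limma called 0 of the 9 genes (1.27% of all probe sets), with 1 at an unadjusted p under 0.05. In RS against RG it called 0 (0.682% of all), with 1 at an unadjusted p under 0.05, and in both comparisons that gene was Pdk2. In CL against RG it called 0 (2.87% of all), with 0 at an unadjusted p under 0.05. The intervals do not exclude sizeable differences: for Pdk4, RS minus CL ran from -1.48 to 0.42 and CL minus RG from -0.57 to 1.13. For Mpc2, RS minus CL ran from -1.06 to 0.31, and for Pdhb from -1.30 to 0.46.

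**Figure D3:**
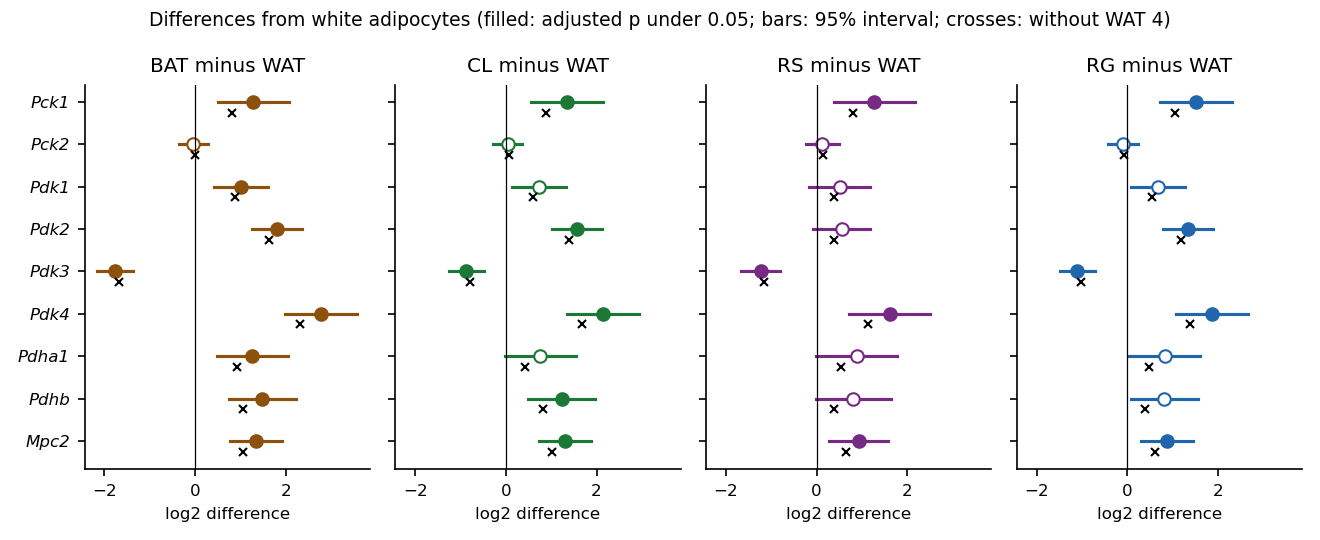
Log2 difference from WAT (horizontal axes) of the 9 genes in BAT, CL, RS and RG, with bars for the 95% interval, filled points for adjusted p under 0.05 and crosses for the difference without WAT 4. Pdk3 is the one gene left of 0 with filled points, and the crosses lie nearer to 0 for Pck1, Pdk4, Pdha1, Pdhb and Mpc2, as for Pck1 in BAT with 0.82 in place of 1.28.

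Around these genes, 53 others of the pathway were measured in 5 lists. In BAT 25 were called higher and 8 lower than in WAT, in CL 18 and 6, in RG 14 and 6, and in RS 6 and 6, the last close to the shares of all probe sets given above. The 53 had median differences of 0.54, 0.54, 0.63 and 0.54 in BAT, CL, RG and RS, against 0.18, 0.13, 0.10 and 0.14 over all probe sets. The RG total fell from 20 to 10 genes without RG 4, and the RS total rose from 12 to 22 without WAT 1. Without both WAT 4 and RS 3 the RS total was 3.

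The partners of Pdha1 and Pdhb in the pyruvate dehydrogenase complex, its phosphatases and the lipoylation enzymes made up a list of 9. Of these, 8 were called higher in BAT, 7 in CL, 5 in RG and 1 in RS, and none was called lower. Of all probe sets, 27.6%, 15.2%, 5.19% and 11.1% were called higher in BAT, CL, RG and RS, so the RS count was no larger than the background. Dlat, the acetyltransferase core, rose by 1.92 in BAT (limma adjusted p = 0.000150) and 1.59 in CL. Dld, the dehydrogenase that reoxidises the lipoyl groups, rose by 1.70 in BAT, and Lipt1, a lipoyltransferase, rose by 1.46 in BAT, 1.78 in CL and 1.28 in RG. Pdhx, which anchors Dld protein to the core, rose by 1.55 in CL, and Lias, which makes lipoic acid, rose by 1.13 in RG. Here and below only the called genes with the smallest p are named per comparison, so a gene may also differ in groups not given. Pdhx averaged 6.83 in BAT and 5.31 in WAT, and Lias 6.44 and 5.39. Pdpr, a regulator of the activating phosphatase, was the 1 called gene in RS (0.66, adjusted p = 0.0391), where 8 of the 9 were higher at an unadjusted p under 0.05. It was also called higher in RG, and it averaged 6.44 in BAT and 6.29 in RG against 5.42 in WAT. The phosphatase Pdp1 differed by -0.09 in BAT (adjusted p = 0.746).

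Genes of pyruvate, lactate and alanine were called higher in 4 of 9 in BAT, 1 in CL, 1 in RS and 2 in RG, beside 27.6%, 15.2%, 11.1% and 5.19% of all probe sets, so that the CL and RS counts were no larger than the background. Ldhb, a lactate dehydrogenase subunit, rose in each group, by 1.93, 1.43, 0.89 and 0.72 in BAT, CL, RS and RG. Pkm, pyruvate kinase, rose by 0.81 and the lactate transporter Slc16a1 by 1.33 in BAT, and the related Slc16a7 by 0.86 in RG. Of 8 genes that make, use or supply glycerol 3-phosphate, 4 were called higher and 1 lower in BAT, 3 higher in CL and 1 higher in RG. In RS limma called 0, and 5 were higher at an unadjusted p under 0.05. The higher counts stand beside the shares just given, and the 1 lower gene in BAT beside 16.4% of all probe sets. Gpd2, the mitochondrial glycerol 3-phosphate dehydrogenase, rose by 2.08 in BAT and 1.33 in CL, and Gk, glycerol kinase, by 1.89 and 1.95. Gpd1, the cytosolic dehydrogenase, rose by 1.72 in BAT, 1.41 in CL and 1.43 in RG.

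Genes that supply malate and other dicarboxylates went both ways. Of 12, BAT had 4 higher and 3 lower, CL 3 and 2, RG 1 and 4, and RS 0 and 4 (4 and 4 at an unadjusted p under 0.05 in limma). The shares of all probe sets called higher and lower were 27.6% and 16.4% in BAT, and 15.2% and 9.97% in CL. They were 5.19% and 6.24% in RG, and 11.1% and 10.3% in RS. The counts of higher genes in BAT and RG were near these shares. Mdh2, mitochondrial malate dehydrogenase, rose by 1.35 in BAT, 1.19 in CL and 1.02 in RG. The transaminase Got1 fell by 2.02 in RS and by 1.99 in RG, and its mitochondrial partner Got2 fell by 1.17 in BAT and 1.96 in RG. Slc25a11, the oxoglutarate carrier, rose by 0.76 in BAT and 0.72 in CL. Me2, a mitochondrial malic enzyme, fell by 0.84 in CL and 1.10 in RS, and the aspartate-glutamate carrier Slc25a12 by 1.04 in RS. Macrophage and stromal markers fell in the same comparisons, as did endothelial markers in RS and RG, and their part in these decreases was not tested.

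Of 15 transcription factors and coactivators, BAT had 5 higher and 4 lower, CL 4 and 4, RG 5 and 2, and RS 4 and 2. Over all probe sets, 27.6% and 16.4% were called higher and lower in BAT, 15.2% and 9.97% in CL, 5.19% and 6.24% in RG, and 11.1% and 10.3% in RS, and the counts of higher genes in BAT and lower genes in RS were near these shares. Ppargc1b, a coactivator of mitochondrial genes, rose by 2.11 in BAT, 1.40 in CL, 1.22 in RG and 0.82 in RS. Ppara, the fatty acid sensor, rose by 2.87 in BAT and 2.08 in CL, and Ppargc1a by 2.05 in BAT. Pparg, the receptor of rosiglitazone, rose by 0.91 in RG, and Cebpa, its partner in adipocytes, by 1.00 in RG and 0.99 in RS. Foxo3, a forkhead factor, fell by 0.99 in CL and Hif1a, the hypoxia factor, by 0.84 in RS.

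**Figure D4:**
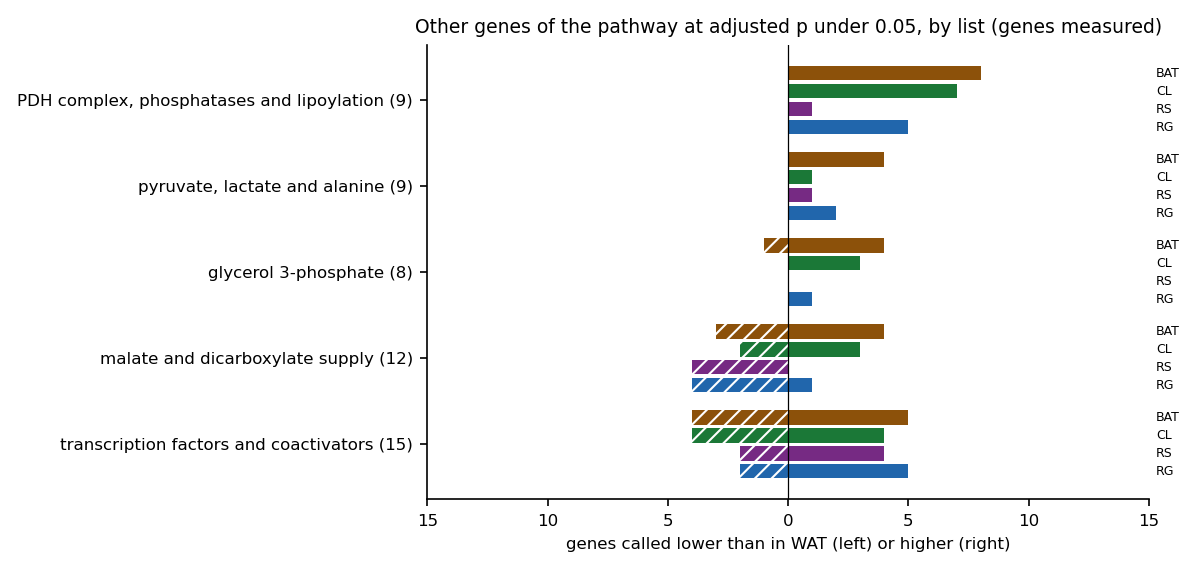
Number of other pathway genes called at adjusted p under 0.05, lower (left, hatched) or higher (right) than in WAT, for 5 lists with the number measured in parentheses and 1 bar each for BAT, CL, RS and RG. The pyruvate dehydrogenase list holds 8, 7, 1 and 5 higher genes in that order of groups, and the malate list holds lower genes in every group.

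For each of the 9 genes, up to 3 named genes with the most similar values over the 15 arrays are given out of 19541 probe sets, by Pearson's r. These values share arrays and the split between WAT and the rest, so r is a description. Pdk4 ran closest to Idh3g (r = 0.99), a subunit of isocitrate dehydrogenase, and Ndufv1 (0.98), a subunit of respiratory complex I. Mpc2 ran closest to Glrx5 (0.99), Nudt7 (0.98) and Ndufs7 (0.98). Pck1 ran closest to Proca1 (0.98) and Chpt1 (0.97), and Pdk2 to Grpel1, Cs, which encodes citrate synthase, and Chchd3 (0.97 each). Pdhb ran closest to Agpat2, Atp5b and Fbxo8 (0.97 each), and Pdha1 to Immp2l (0.97), Gbe1 (0.96) and Acacb (0.95). Pdk1 ran closest to Ldha (0.96), another lactate dehydrogenase subunit, then BC025920 and Txnrd2 (0.95 each). Pdk3, whose values run opposite, was closest to Itm2a, Lsr and Galnt10 (0.96 each), and Pck2 had the loosest company, with Pole2 at 0.88, Esco2 at 0.82 and Gfod1 at 0.82.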

How the data were processed

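Gene expression was measured in 15 samples of sorted mouse adipocytes. The deposited log2 values, 1 per probe set and array, were used as the authors gave them. Affymetrix Expression Console, affy 1.36.1 and RMA are listed in the submitters' processing notes. Their order, settings and probe definition are not given in the sources used here. Their scaling can shift all values of an array, which the median-centred alternative bears on. Probe sets were named by the Entrez number in their identifier: 23185 were in the platform annotation, 555 more, Mpc2 among them, were named through RefSeq alone, and 1466 have no symbol.

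Group differences were fitted in limma 3.58.1 (R 4.3.3; lmFit, contrasts.fit, eBayes, two-sided). One model of group means took all 15 arrays (10 residual degrees of freedom), with Benjamini-Hochberg adjustment over 25206 probe sets within each of 10 comparisons and a threshold of 0.05. RS, with 2 arrays, takes its spread from all groups. Arrays give no read depth, so their number limits the precision. The test was also run on simulated data with known changes, with spread and means taken from these arrays, and its outcome is not reported here. Same-numbered arrays of different groups correlated between -0.88 and -0.05 over 24 pairs after removal of group means. As none was over 0.1, the numbers were not used as pairs. That check looked for positive correlation alone, and every pair was negative, so it cannot show that the number carries no structure. It runs over all probe sets and does not speak for single genes. For Pck1, array 4 was the highest of BAT, CL, RS and RG and the lowest of WAT. A fit with the number as a block is given among the alternatives.

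The genes and lists were chosen with earlier results of these data known. Named were the 9 genes, up to 3 called genes with the smallest p per list in each comparison with WAT, the 3 most similar genes for each, and markers a result stands beside. Of the similar genes, 2 are not reported here. Pdp1 was named after its value was seen. Alternatives were a replicate block, median centring, quantile normalization, a filter on low values, a fit of the 2 groups alone, a trended robust fit, array weights and each array left out. Leaving out WAT 4 and RS 3 together was added after seeing the data. Promoter windows came from RefSeq. Protein sequences were not used here.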

Additional observations from a re-analysis of the deposited data

How the results depend on the processing

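Of 26 calls among 90 tests of the 9 genes, 16 held under all 23 alternatives: the 8 in BAT against WAT, Pdk2 in CL and RG, Pdk3 in CL, RS and RG, Pdk4 in CL and RG, and Mpc2 in CL, each against WAT. No called difference changed sign. With the replicate number as a block, 10 calls were lost. In CL against WAT, Pck1 and Pdhb were no longer called (limma adjusted p = 0.0639 and 0.0682). Members called fell to 3 in RG and 1 in RS against WAT and to 0 in CL, RS and RG against BAT. The other pathway genes fell to 12 in RG and 6 in RS. With only the 2 groups compared, there were 3 members in RG and 1 in RS against WAT, 0 in CL and RS against BAT and 2 in RG against BAT. That fit also lost Pdhb in CL against WAT (limma adjusted p = 0.0561). Array weights gave 1 member and 6 pathway genes in RS against WAT, and 0 members in CL and RS against BAT. Median centring left 2 members in RS against WAT. Without both WAT 4 and RS 3, 2 members were called in RG against BAT and 0 in RS against BAT, and 3 pathway genes in RS against WAT. The cause was not tested, beyond the fewer residual degrees of freedom of the block and of fits on fewer arrays. Leaving out 1 array gave 8 to 8 members in BAT, 4 to 7 in CL, 1 to 4 in RS and 3 to 5 in RG against WAT. Against BAT the ranges were 0 to 1 in CL, 0 to 2 in RS and 0 to 2 in RG. RS against CL gave 0 to 1, and RS against RG and CL against RG 0 to 0. Other pathway genes ranged from 26 to 37 in BAT, 17 to 27 in CL, 10 to 23 in RG and 8 to 22 in RS. The trended robust fit and the filter on low values changed no call of the 9 genes, and quantile normalization lost 1 and gained 1.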
